A study of Rattus norvegicus with 42 samples.

Results

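A total of 274 transcription start site (TSS) peaks were chosen because their mean level in rat soleus was lower during hindlimb unloading than in control soleus. They are 2.75% of the 9969 deposited peaks outside the mitochondrial chromosome. They were selected on their CPM, a peak's share of a library's summed peak counts scaled per 1e+06 tags. A peak was taken where (mean of the 9 unloaded soleus libraries + 1)/(soleus control mean + 1) was at most 0.67. Its ratio at 24 hours of recovery had to be over 0.5, and its soleus control level had to lie between 0.25 and 4 times that of EDL, also with 1 CPM added. The first condition took 555 peaks, the second left out 209 of them, and the third left out 72 more.

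Soleus is a slow-twitch postural muscle that works against gravity, and extensor digitorum longus (EDL) is a fast-twitch muscle of the same leg. When the hindlimbs of a rat are lifted off the floor, soleus loses its load and atrophies, and it regrows after the rat is set down. Cap analysis of gene expression (CAGE) sequences the first bases of capped RNA, so that each tag marks the nucleotide where transcription began. Tags that start close together form a peak, and 1 gene can have several peaks, at its promoter and within its body.

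The study used 21 mature Wistar rats, 3 in each of 7 phases, and soleus and EDL were taken from each rat, which gave 42 libraries in 14 groups of 3. Controls were active rats. Other rats were suspended by the tail for 24 hours (D1), 3 days (D3) or 7 days (D7), and a further set was suspended for 7 days and then reloaded for 24 hours (R1), 3 days (R3) or 7 days (R7). No transgene or drug treatment is described, and according to the study's methods the rats were killed under ether anaesthesia. Whole muscle was extracted, so that fewer cells of a type and less RNA per cell cannot be told apart in any value below. The files hold no gene names and are on the rat build Rnor_6.0, for which no annotation was used here. Peaks are therefore named by position, counted from 1, with the strand in brackets. The labelled muscles could not be checked against marker genes.

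The libraries held between 1696341 and 22116123 tags in peaks, with a median of 7968033, and 72.4% to 95.9% of a library's tags lay in peaks. All 6 control libraries were sequenced in lane 1. No recovery library was in lane 1, so that lane and recovery cannot be told apart in any ratio of R1, R3 or R7 to control. The soleus D1 library of animal 24 was the only unloaded library in that lane, so that lane and unloading cannot be told apart in the other 17 unloaded libraries by a comparison with the controls. In this library alone 242 of the 274 peaks (88.3%) stood at or under 0.67 of the control mean, against 27.5% of all peaks, but it was also 1 of the 9 libraries that chose them, so that its low share was partly fixed by the rule.

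The unloaded soleus libraries were chosen low, so the size of the fall is a description and was not tested. The median soleus control level was 12.4 CPM over the 274 peaks and 10.9 CPM over all peaks. In the unloaded libraries the median was 6.91 CPM for the chosen peaks and 11.2 CPM for all peaks. The chosen peaks had control means from 0.690 to 1946 CPM: 27 had a control mean of at least 100 CPM and 47 a mean under 3 CPM. The lowest point was early, since the median ratio to control was 0.497 at D1, 0.586 at D3 and 0.684 at D7, against 0.903, 1.06 and 1.09 over all peaks. D1 was the lowest of the 3 unloading phases for 177 peaks (64.6%), a share close to the 62.8% of all peaks. A total of 247 peaks stood at or under 0.67 at D1, 205 at D3, 129 at D7 and 77 at all 3 times. Over all peaks the shares were 16.2%, 8.68%, 5.83% and 2.01%, and so also became smaller from D1 to D7.

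**Figure D1:**
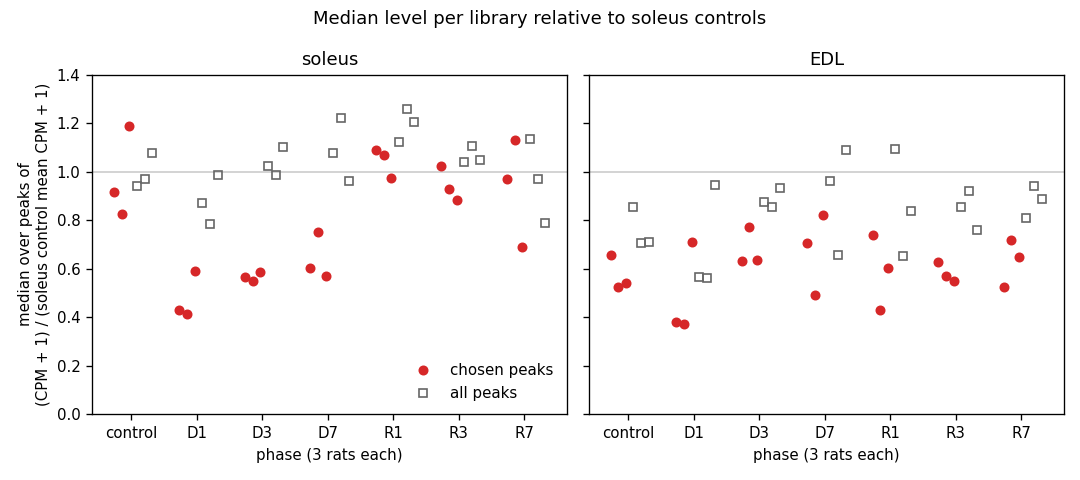
Each point is 1 library, and the y axis gives the median over peaks of (CPM + 1)/(soleus control mean CPM + 1), for the 274 chosen peaks (filled circles) and for all 9969 peaks (open squares), by phase in soleus and EDL. The 9 unloaded soleus libraries lay between 0.414 and 0.753 for the chosen peaks and between 0.787 and 1.22 for all peaks, and the recovering soleus libraries between 0.690 and 1.13 for the chosen peaks.

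The fall of a mean did not always separate the single libraries. All 9 unloaded libraries lay under all 3 controls for 53 of the 274 peaks (19.3%, against 1.00% of all peaks, a contrast the choice itself fixed), and at least 8 of 9 did so for 109 (2.85% of all peaks). Among the controls, the soleus library of animal 7 was at or under 0.67 of the other 2 for 95 of the chosen peaks. For animals 6 and 8 the counts were 49 and 28. Over all peaks the counts for animals 7, 6 and 8 were close, at 1079, 1001 and 901. The control mean was part of the rule, so the counts over the chosen peaks are a description. In the library of animal 7, 72.4% of the tags lay in peaks, the lowest share of any library, and CPM is a share of the tags in peaks only. The summed level of the 274 peaks was 13855 CPM in animal 6, 10206 CPM in animal 7 and 17802 CPM in animal 8 of the controls. It ran from 6075 to 9575 CPM in 8 of the unloaded libraries and was 13637 CPM in the D7 library of animal 2, which overlapped the controls. Without control animal 8 the rule took 229 peaks, 143 of them among the 274, and without the D7 library of animal 2 it took 383 peaks, 268 of them among the 274.

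In edgeR fits over all peaks, which use the same controls and the same unloaded libraries as the choice, so that the direction was fixed and nothing is read from the counts, 38 of 273 tested peaks were called lower at D1, 16 at D3 and 2 at D7. The shares of all peaks called lower were 1.12%, 0.315% and 0.0508%.

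The most strongly transcribed of the 274 was chrX:159157881-159158453(+). Its soleus levels were 2039, 1380 and 2420 CPM in controls, and 823, 1261 and 1844 CPM as the lowest, median and highest of the unloaded libraries. The groups overlapped, and 5 of the 9 unloaded libraries lay under all controls. The D3 libraries were the lowest, at 823, 957 and 1043 CPM.

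The next in order were a pair 8 kb apart on the same strand, chr3:63837635-63837939(-) and chr3:63846041-63846328(-). The first had 1429, 367 and 1799 CPM in controls and from 386 to 1882 CPM when unloaded. No unloaded library lay under all controls, since control animal 7 was as low as the unloaded rats. The log2 counts of the pair differed by 0.0270 on average over the 42 libraries (r = 1.00). The study's methods describe an alignment that initially allowed up to 20 loci per tag. Whether tags shared between loci account for such pairs was not tested. Such partners were searched for only among peaks above a minimum of summed tags. Of the 274 peaks, 12 had a partner of this kind, with a mean difference under 0.3 and r of at least 0.98. Of the 12, 11 had a partner among the 274.

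Several strong peaks separated better. At chr3:53563136-53563356(+) the controls had 351, 246 and 576 CPM, and the unloaded libraries 141, 207 and 329 CPM as the lowest, median and highest. Only 1 unloaded library, that of animal 26 at D1, lay above the lowest control. At chr2:227298148-227299083(-) the controls had 355, 276 and 481 CPM and the unloaded libraries 158, 222 and 331 CPM. At chr1:199449843-199450076(+) the controls had 176, 142 and 296 CPM and the unloaded libraries 55.7, 81.9 and 199 CPM. In both of these peaks the D7 library of animal 2 was the highest unloaded library.

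Of the other peaks among the 12 strongest, the ratio of unloaded to control levels was 0.626 for chr3:53633317-53642698(+), a 9382-nt cluster, 0.571 for chr3:58952502-58953465(+), 0.624 for chr9:44024732-44024968(-) and 0.648 for chr10:25910106-25910448(-). For the last of these, control animal 8 alone stood high at 276 CPM beside 170 and 126 CPM, and without it the ratio was 0.834. The peak chr4:56710804-56711645(+) had 592, 317 and 553 CPM in controls and 138, 145 and 223 CPM at D1, but 409, 758 and 336 CPM at D7, so that at D7 it overlapped the controls.

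Among the 158 chosen peaks with a control mean of at least 10 CPM, the 10 lowest ratios ran from 0.272 to 0.424. The lowest was chr5:173640659-173640803(+), with 18.6, 13.5 and 22.3 CPM in controls and 1.66, 3.25 and 14.6 CPM as the lowest, median and highest unloaded value. Its D1 libraries were nearly equal, at 2.01, 1.66 and 1.81 CPM, and only the D7 library of animal 2 overlapped the controls. It had not returned at R7, with 4.06, 6.89 and 10.4 CPM, all under the lowest control.

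A graded pattern was seen at chr9:82419216-82419406(-). The controls had 255, 222 and 240 CPM, and the unloaded libraries 48.6, 34.1 and 28.0 CPM at D1, 90.5, 91.6 and 94.3 CPM at D3 and 147, 180 and 194 CPM at D7. None of these 4 groups overlapped another, and each later unloading phase was higher than the one before. The D1 libraries were in lanes 1 and 2, D3 in lanes 2 and 3 and D7 in lane 3, so that phase and lane were partly mixed. At R3 the peak was at 554, 395 and 457 CPM, above all controls.

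Of the other 8 peaks with the lowest ratios, 6 had all 9 unloaded libraries under all controls. They were chr2:151314653-151314982(+) with a ratio of 0.328, chr9:17340276-17341142(+) with 0.379, chr15:4073409-4073978(+) with 0.395, chr7:62971774-62972176(-) with 0.411, chr4:144192782-144193107(+) with 0.411 and chr7:117258919-117259214(-) with 0.421. At chr6:73708056-73708451(+), with a ratio of 0.412, the D7 library of animal 2 (33.8 CPM) lay above 2 of 3 controls. At chr1:254735508-254735753(-), with a ratio of 0.288, the controls themselves were spread over 23.5, 2.98 and 13.3 CPM, and without animal 6 the ratio was 0.448.

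After 24 hours of reloading the 274 peaks split widely. The ratio of R1 to control, which the rule bounded only at 0.5 and which shares its controls with the unloading ratio, had a median of 1.03 against 1.22 over all peaks. It was at most 0.67 for 71 peaks, over 0.67 and up to 1.5 for 94, over 1.5 and up to 4 for 67, and over 4 for 42. The last share was 15.3%, against 8.48% of all peaks, and the first 25.9%, against 19.4%. The R1 mean was above the control mean for 50.7% of the chosen peaks and 62.1% of all. Since the rule bounded R1, these shares are a description. Peaks over 4 were weak in controls, with a median control level of 3.58 CPM against 16.1 CPM in the lowest class, while the median unloading ratio was nearly the same in the 4 classes, from 0.596 to 0.616.

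**Figure D2:**
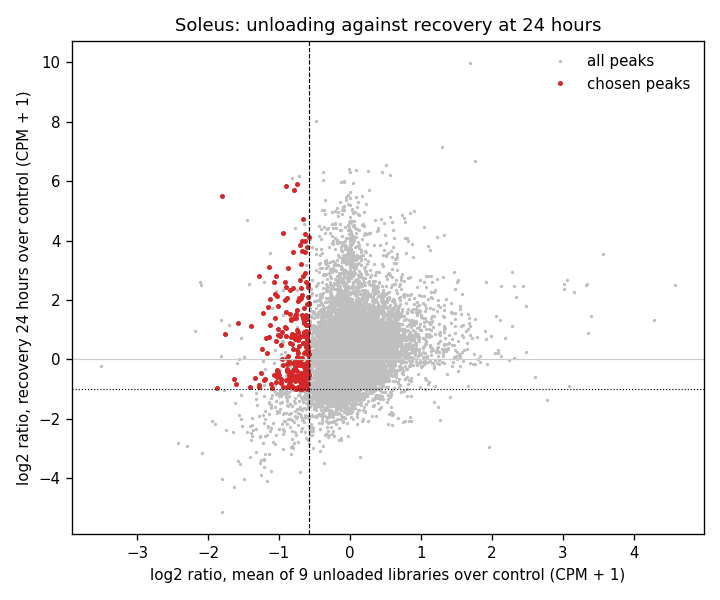
Each point is 1 peak, with the log2 ratio of the mean of 9 unloaded soleus libraries to control on the x axis and the log2 ratio of R1 to control on the y axis, 1 CPM added to each mean. The dashed line marks the ratio of 0.67 and the dotted line the ratio of 0.5 that the rule used, and the 274 chosen peaks (red) spread upward from the dotted line, with 42 over a ratio of 4.

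The largest R1 levels came from few positions. At chr16:6962574-6963118(+) the soleus controls had 154, 149 and 265 CPM and the R1 libraries 2975, 3947 and 2179 CPM. At R7 it was still at 1051, 877 and 830 CPM, above every control. At chr4:56710804-56711645(+) R1 was 4718, 1809 and 1192 CPM, all above the controls.

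The peaks chr6:135112787-135113023(-), chr6:135050360-135050425(-) and chr13:6347408-6347581(-) belong to the near-identical peaks above, with mean log2 differences of 0.168 to 0.256 between them over the libraries. The first had 26.9, 25.3 and 32.8 CPM in controls, from 7.39 to 23.3 CPM unloaded, and 2983, 831 and 749 CPM at R1. All 9 unloaded libraries lay under the controls and all 3 R1 libraries far over them, with animal 18 the highest. At R3 it was at 44.4, 31.7 and 34.7 CPM. A similar course was seen at chr2:257405662-257406117(-), where the controls had 54.3, 62.6 and 109 CPM, R1 had 1341, 322 and 327 CPM and R3 had 101, 56.6 and 61.6 CPM. There too animal 18 was the highest.

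**Figure D3:**
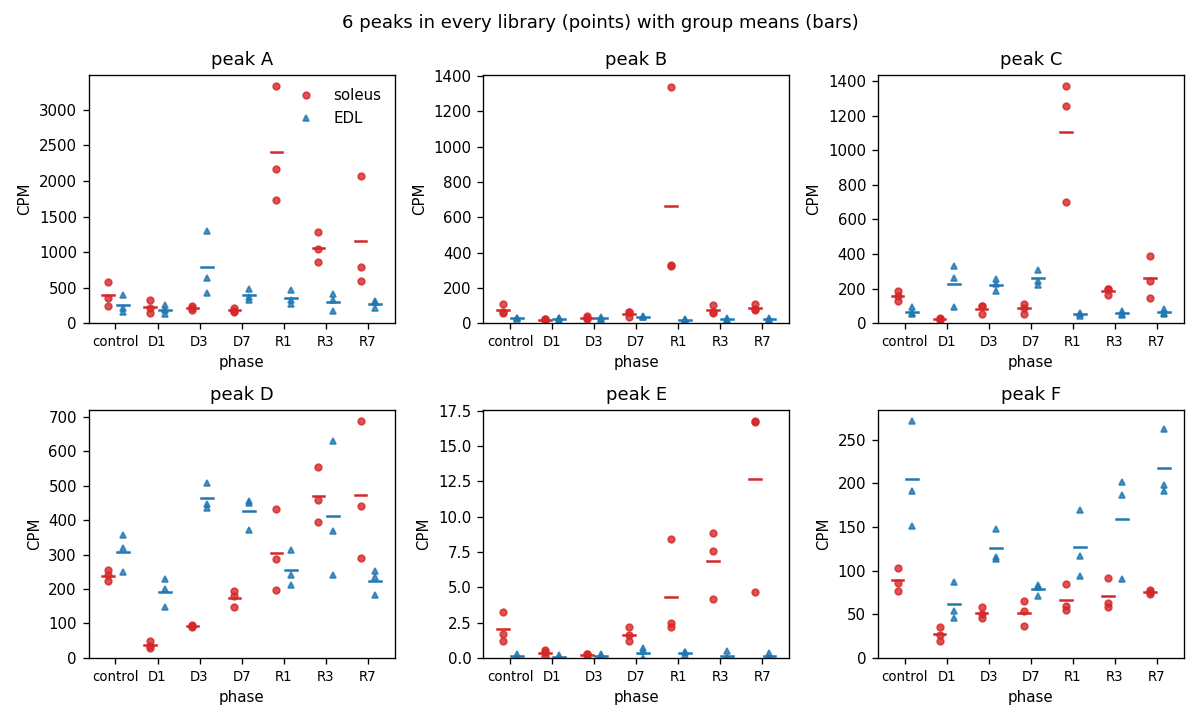
CPM in every library (points) and group means (bars) by phase, in soleus (circles) and EDL (triangles). Peak A is chr3:53563136-53563356(+), B chr2:257405662-257406117(-), C chr4:144192782-144193107(+), D chr9:82419216-82419406(-), E chr3:105509637-105509785(-) and F chr3:159775207-159776200(-), and in each the soleus mean at D1 lies under the control mean, while R1 is the highest soleus phase in A, B and C only.

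At R3 and R7 the median ratio to control was 0.933 and 0.945, against 1.08 and 1.00 over all peaks. At R7, 81 peaks (29.6%) had a ratio over 1.5 and 55 (20.1%) a ratio of at most 0.67, against 1698 and 1588 of all 9969 peaks. Peaks over 4 at R1 had a median R7 ratio of 1.75, and peaks at most 0.67 at R1 a median of 0.770, and both ratios share the controls. The highest R7 ratio, 32.3, was that of chr1:254735508-254735753(-), with 434, 609 and 335 CPM at R7. The second, 20.2 at chr10:92628216-92628493(+), rested on single libraries, with 647, 103 and 1.39 CPM at R7 beside 4.41, 0.477 and 29.5 CPM in controls.

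Some of the chosen peaks lay in groups. A neighbouring peak on the same strand within 100000 nt was found for 69.7% of them and 65.9% of all peaks. Taking chosen peaks on 1 strand no more than 100000 nt from the next, 73 of the 274 fell into 23 runs and 201 stood alone. Chromosome 3 held 40 of them (14.6%, against 9.70% of all peaks). Peaks of a run may belong to 1 gene and are not independent.

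The run with the most chosen peaks, chr3:63687189-63717274(-), held 8 of the 22 peaks in its span, and 11 of the 22 were at or under 0.67. Its 8 chosen peaks had a median ratio of 0.636 when unloaded and 0.543 at R1, and at R7 the median was lower still, at 0.379. At chr3:63708394-63708618(-), the strongest of them, the controls had 49.0, 19.4 and 22.8 CPM and R7 had 5.16, 16.7 and 5.56 CPM. All R7 libraries lay under all controls, while the unloaded libraries, from 11.4 to 43.6 CPM, overlapped them.

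The run chr13:100297982-100318046(-) consisted of 7 peaks, all of them chosen. Their control means were low, from 1.97 to 5.03 CPM, and summed to 21.1 CPM. The median ratio was 0.490 when unloaded, 3.38 at R1 and 1.76 at R7. At chr13:100297982-100298699(-) the controls had 4.21, 4.65 and 6.23 CPM and the unloaded libraries from 0.183 to 1.78 CPM. No unloaded library came near a control.

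The run chr3:53563136-53658064(+) held 6 of 8 peaks and a summed control level of 1063 CPM. Its median ratio was 0.608 when unloaded, 2.68 at R1 and 2.82 at R7, so that these peaks were still above control at R7. The first peak had 788, 2072 and 587 CPM at R7, all above the controls, and animal 13 was the highest in this peak and in the 9382-nt cluster downstream. In the run chr2:257397314-257473411(-), 6 of 10 peaks were chosen. The 2 peaks with the lowest coordinates had mean levels of 18.4 and 664 CPM at R1, against 3.34 and 75.2 CPM in controls, and the other 4 were near their control means at R1, for example 26.5 against 27.4 CPM at chr2:257461163-257461360(-).

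**Figure D4:**
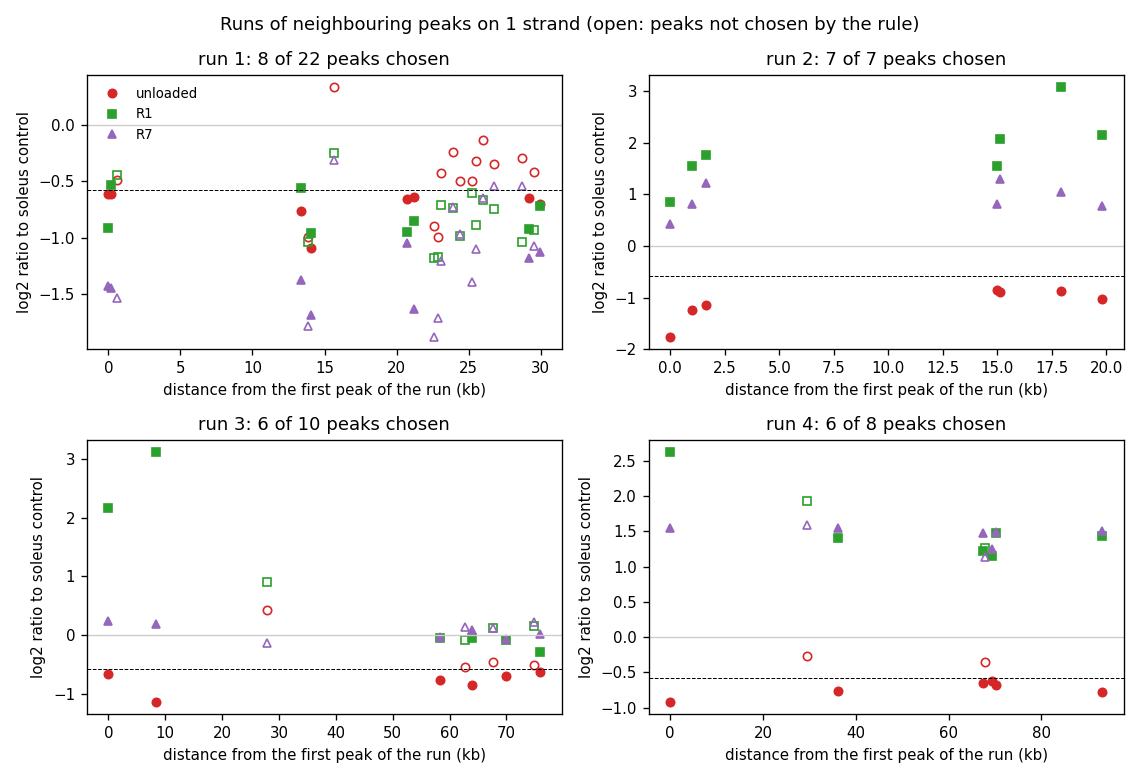
Log2 ratio of the unloaded (circles), R1 (squares) and R7 (triangles) soleus means to control, 1 CPM added, against the distance of each peak from the first peak of the run in kb, for the runs on chromosomes 3 (63.7 Mb, run 1), 13 (run 2), 2 (run 3) and 3 (53.6 Mb, run 4). Filled points are chosen peaks, open points the other peaks of the span, and the dashed line is the ratio of 0.67; run 1 lies under 0 at every time except 1 open peak when unloaded, and in run 2 all R1 and R7 points lie above 0.

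Within the peaks, the spread and the position of transcription starts were compared between controls and unloaded soleus. The interquantile width, the stretch that holds the central 80% of a peak's tags, had a median of 51 nt in controls and 53 nt in unloaded soleus, and 48 and 50 nt over all peaks. The most used start nucleotide was the same in controls and unloaded libraries for 208 of 251 comparable peaks (82.9%, against 79.6% of all peaks). It moved by over 10 nt for 27 (10.8%, against 11.6%), so both shares were near those of all peaks. Among 186 peaks with at least 10 tags in every library compared, the share of tags at that nucleotide was lower in all 9 unloaded libraries than in all 3 controls for 3 (1.61%, against 0.776% of all peaks), and higher for 0 (0.513% of all peaks). At chr4:56710804-56711645(+) this share was 90.4%, 89.9% and 89.7% in controls and ran from 79.1% to 89.67% in unloaded libraries, on 755 to 9004 tags. The 2 other peaks, chr2:231824647-231825112(-) and chr8:116352457-116352596(-), rested on as few as 10 and 16 tags in a library. The chosen peaks were 229 nt wide at the median and all peaks 207 nt, and 45 chosen peaks (16.4%) were at least 500 nt wide, against 10.8% of all.

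Whether the same peaks moved in the unloaded fast muscle was tested with the EDL libraries. The rule used the EDL control mean, which is 1 side of this test, as a bound. In the edgeR quasi-likelihood test of the mean of D1, D3 and D7 against control, 249 of the 274 could be tested. Of these, 8 were called higher (3.21%, against 1.24% of all 9341 peaks tested) and 3 lower (1.20%, against 0.803%), with calls made where the adjusted p was under 0.05 and the fold change was over 2.378 or under its inverse. The median log2 fold change was -0.10 over the chosen peaks and 0.01 over all. Of 64 tested peaks left out by the bound on the EDL ratio, 17 were called higher (26.6%) and 1 lower. Their median log2 fold change was 1.07, so the bound shaped the counts and the median of the chosen peaks. The 3 EDL controls were all in lane 1 and no unloaded EDL library was, and with lane as a term in a fit over all 42 libraries 0 of all peaks were called in edgeR, and 20 of the chosen peaks had an unadjusted p under 0.05, against 5.99% of all peaks. In that fit only the soleus D1 group, through the library of animal 24, linked lane 1 to the other lanes. The lane term for the EDL controls thus rests on 1 soleus library, and the fit cannot tell lane and unloading apart in EDL. DESeq2 without the lane term called 14 of the chosen peaks higher and 3 lower, and 215 and 86 of all 9969 peaks.

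Leaving out control animal 6, 7 or 8 left 2, 0 and 2 of the chosen peaks called higher and 0, 3 and 1 called lower. Of the 3 lower calls without animal 7, 2 were among the 3 of the full fit. The lower count also became 1 without animal 10 or animal 3, 5 without animal 11, and 1 without the shallowest D1 libraries, those of animals 24 and 25.

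The most abundant peak that was called higher was chrX:159157881-159158453(+). Its EDL controls had 649, 482 and 657 CPM, and the unloaded EDL libraries 555, 1851 and 2528 CPM as the lowest, median and highest. At D3 and D7 all 6 libraries were above all controls, and the D1 libraries of animals 24 and 25 were near them. The log2 fold change was 1.253 (SE 0.22, adjusted p = 0.0042), close to the cutoff, and it was between 1.16 and 1.23, under the cutoff, without control animal 6 or 7 or without animal 26, 11 or 1.

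At chr4:144192782-144193107(+) the EDL controls had 91.3, 52.7 and 56.7 CPM and the unloaded EDL libraries 93.7, 245 and 330 CPM as the lowest, median and highest. All 9 were above all controls, and by R1 the peak was back at 51.4, 43.8 and 58.1 CPM. The log2 fold change was 1.74 (SE 0.31, adjusted p = 0.0052), and the adjusted p was 0.052 without control animal 7 and 0.058 without animal 8. In soleus the same peak was at 25.2, 18.8 and 30.1 CPM at D1, under all its controls.

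The largest change among the called peaks was at chr2:187692170-187692456(+), with 0.872, 0.609 and 2.01 CPM in EDL controls and from 16.8 to 242 CPM in unloaded EDL. No library of the 2 groups overlapped. Its log2 fold change was 5.65 (SE 1.08, adjusted p = 0.0078), and the adjusted p was 0.090 without control animal 6 and 0.058 without animal 7. The other 5 called higher had log2 fold changes of 2.58 to 4.69. Among them chr16:6962574-6963118(+) had 185, 137 and 155 CPM in EDL controls and from 504 to 3356 CPM unloaded. Of the 8 peaks called higher in EDL, 3 passed the filter on low counts only through the unloaded libraries in which they were high, namely chr1:254727031-254727833(-), chr3:171295491-171295789(-) and chr4:83390817-83391430(+). The same held for 14 of the 249 tested, so that the count of 8 is no support for a shift of the chosen peaks.

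The 3 peaks called lower in EDL were low in both unloaded muscles. At chr3:159775207-159776200(-) the EDL controls had 272, 151 and 191 CPM and the unloaded EDL libraries 45.4, 84.1 and 148 CPM as the lowest, median and highest. The groups did not overlap, and D1 was the lowest phase, as in soleus, where D1 had 26.7, 19.5 and 34.8 CPM beside controls of 86.3, 77.2 and 103 CPM. The log2 fold change in EDL was -1.36 (SE 0.21, adjusted p = 0.0020) and -1.21 without control animal 6, under the cutoff. A second peak on the same strand, chr3:159710041-159711155(-), had -1.36 (SE 0.33, adjusted p = 0.028). The third, chr1:143398015-143398152(-), had -1.27 (SE 0.28, adjusted p = 0.019). The second call was lost without control animal 6, 7 or 8 or animal 9, 10, 1 or 3, and the third without control animal 6 or 8 or animal 24, 25, 10 or 3.

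Over single libraries, 13 of the 274 peaks had all 9 unloaded EDL libraries above all 3 EDL controls and 2 had all 9 below, against 3.52% and 0.863% of all peaks.

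The 2 muscles were compared at R7, where no library had entered the choice. In edgeR over all 42 libraries, 73 of the 274 peaks were called higher in soleus than in EDL (26.6%, against 9.72% of all 9944 peaks tested) and 8 lower (2.92%, against 7.20%). The median log2 fold change was 0.62 over the chosen peaks and 0.09 over all. In the fit of EDL alone, 249 of the chosen peaks and 9341 of all peaks passed the filter on low counts. Peaks beyond these may have entered here only through soleus libraries in which they were high, which can add to the higher calls. The choice favoured a high soleus control level: the median control ratio of soleus to EDL was 1.71 for the chosen peaks and 1.32 for all. Among peaks with a control ratio over 1 and up to 2, 20 of 131 chosen peaks (15.3%) were called higher, against 4.84% of all peaks. Over 2 and up to 4 it was 53 of 101 (52.5%), against 31.8%, and over 0.25 and up to 1 it was 0 of 42, against 0.848%. The lower calls were near the shares of all peaks within these classes, with 7 of 42 (16.7%, against 17.9%) in the class up to 1 and 1 of 131 (0.763%, against 0.541%) in the class up to 2. The count of lower calls was 5 without the soleus library of animal 12 and 13 without the EDL library of animal 12.

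**Figure D5:**
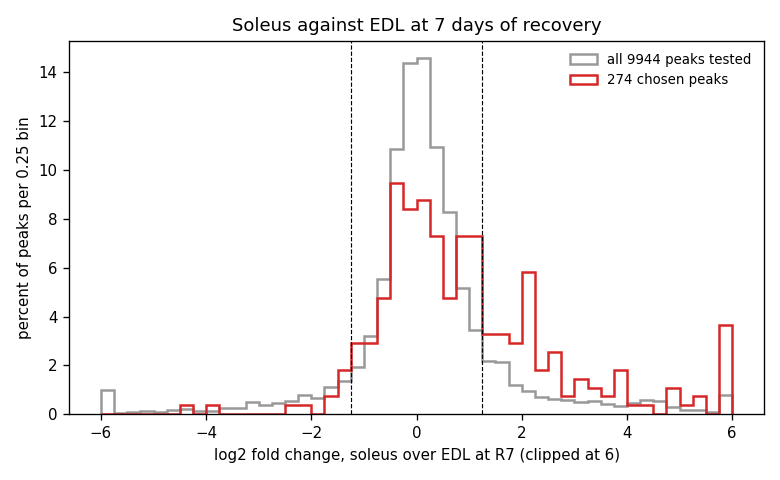
Distribution of the log2 fold change of soleus over EDL at R7, as the percent of peaks in bins of 0.25, for all 9944 peaks tested (grey) and the 274 chosen peaks (red), with values past 6 placed at 6. The dashed lines mark the fold cutoff in each direction, and the red curve has its excess on the right side, where 73 peaks were called.

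The calls differed between the R1 classes, whose control means also enter the rule. Of the 42 peaks over 4 at R1, 27 were called higher in soleus at R7 (64.3%, against 26.8% of all peaks in that class), and of the 71 peaks at most 0.67 at R1, 8 were (11.3%, against 13.1%). In the classes between them the counts were 15 of 94, against 4.97% of all peaks, and 23 of 67, against 9.54%. Of the 42 peaks over 4 at R1, only 32 passed the filter on low counts in the fit of EDL alone. Of all 840 peaks in that class, 490 did. The rest may have entered the R7 test only through soleus, where they were high. The lowest adjusted p was at chr15:4071494-4072403(+), with 22.8, 53.0 and 23.6 CPM in soleus and 6.39, 7.02 and 4.54 CPM in EDL at R7. The groups did not overlap, and the log2 fold change was 2.45 (SE 0.33, adjusted p = 1.0e-06). This peak lies in a run of 4 chosen peaks among 5, chr15:4070933-4073978(+), whose median R7 ratio to control was 2.04.

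Next were 2 peaks of the run chr3:105508263-105512154(-), all 5 of whose peaks were chosen. At chr3:105509637-105509785(-) soleus had 16.7, 16.7 and 4.63 CPM at R7 and EDL 0.376, 0 and 0 CPM, a single EDL tag. The ratio of pooled levels was 309, with a 95% exact interval of 55.1 to 12228 from counting error only (adjusted p = 4.1e-06). At chr3:105508263-105508503(-) soleus had 14.8, 10.2 and 3.24 CPM and no EDL tag was counted. Against a floor of 3 tags over the 3 EDL libraries, the pooled soleus level was at least 75.7-fold higher (adjusted p = 4.3e-06). This bound covers counting error only and not the spread between animals. In both, every soleus library was above every EDL library, and the soleus library of animal 19 was the lowest. Among the R7 libraries only those of soleus, in which these peaks were high, held enough tags for the filter on low counts. These calls are therefore no independent support. Soleus controls of the first were at 3.22, 1.19 and 1.66 CPM, so that its R7 level was above all controls.

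Lower in soleus at R7 was again chr3:159775207-159776200(-), with 77.5, 75.8 and 72.9 CPM in soleus and 191, 262 and 198 CPM in EDL (log2 fold change -1.57, SE 0.25, adjusted p = 1.6e-05). The same order held in the controls. At chr6:93770711-93770957(+) soleus had 0.219, 0.372 and 0.463 CPM and EDL 5.26, 8.28 and 5.47 CPM (log2 fold change -4.26, SE 0.69, adjusted p = 2.7e-05). This peak did not pass the filter on low counts in the fit of soleus alone. It entered the test through EDL libraries, in which it was high, so its call is no independent support. At chr8:84935178-84935412(-) soleus had 1.21, 0.372 and 3.24 CPM and EDL 24.8, 14.4 and 22.1 CPM (log2 fold change -3.94, SE 0.87, adjusted p = 0.00091). None of these 3 overlapped between the muscles.

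From R3 to R7 in soleus 0 of 273 tested peaks were called in either direction by edgeR, as was the case for all 9844 peaks (0.00%). At an unadjusted p under 0.05 there were 29 chosen peaks (10.6%), 22 higher at R7 and 7 lower, against 5.89% of all peaks. DESeq2 called 1 higher and 1 lower. The log2 fold change was above 0 for 197 of 273 peaks (72.2%), against 52.9% of all peaks, and its median was 0.20 against 0.02. Among peaks that also fell in unloading but were left out by the R1 ratio, it was above 0 for 140 of 209, with a median of 0.37. Among those left out by the EDL ratio, it was above 0 for 49 of 71, with a median of 0.30. The shift above 0 was therefore not particular to the chosen peaks. It was not seen in every library. In CPM, the median ratio of the chosen peaks to control was 0.931, 0.883 and 1.02 at R3 in animals 4, 5 and 16. At R7 it was 0.971, 1.13 and 0.690 in animals 12, 13 and 19, so that the 2 phases overlapped. Within lane 5, with 2 animals on each side, edgeR also called 0, with 25 of the chosen peaks at an unadjusted p under 0.05, against 7.38% of all.

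Within unloading, D7 was compared with D1. The rule did not use this difference, but all libraries of the comparison entered the mean that chose the peaks. Over all peaks, D1 stood at or under the threshold of the rule for 1615 and D7 for 581. A choice on the mean can therefore favour peaks that were low at D1, which raises D7 over D1. The median and the counts of the chosen peaks are a description, and the calls on single peaks are not independent of the choice. Of 273 tested peaks 2 were called higher at D7 (0.733%, against 0.589% of all peaks) and 2 lower (0.733%, against 0.447%), so the share of calls was near that of all peaks. The median log2 fold change was 0.23 over the chosen peaks and -0.03 over all, and 64 of the chosen peaks had an unadjusted p under 0.05, against 1480 of all 9844. The counts depended on the scaling. With column totals in place of TMM factors, which moved the median of all peaks to 0.34, 15 were higher and 1 lower, and 222 and 22 of all 9844 peaks. The soleus D7 libraries were all in lane 3 and the D1 libraries in lanes 1 and 2. Phase and lane therefore cannot be told apart from these libraries alone. With lane as a term 0 were higher and 1 lower, and 34 had an unadjusted p under 0.05 (11.5% of all peaks). Without the D1 library of animal 25 or the D7 library of animal 3, 0 were higher and 1 lower, and without animal 24, 1 or 2 the count of higher calls was 1.

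The peak chr9:82419216-82419406(-), whose values are given above, was called higher at D7 (log2 fold change 1.85, SE 0.34, adjusted p = 0.0091). The adjusted p was 0.062 without the D1 library of animal 25 and 0.056 without the D7 library of animal 3. At chr10:59698231-59698365(+) D1 had 1.46, 1.37 and 2.6 CPM and D7 had 5.92, 6.51 and 5.55 CPM, without overlap (log2 fold change 1.34, SE 0.33, adjusted p = 0.048). Its adjusted p was over 0.05 whichever 1 of the 6 libraries was left out.

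Lower at D7 was chr2:96668137-96668295(-), which was at 37.8, 44.1 and 33.9 CPM at D1, near its controls of 42.2, 36.9 and 52.6 CPM, and at 16, 18.2 and 9.26 CPM at D7. The groups did not overlap, and the log2 fold change was -1.83 (SE 0.24, adjusted p = 0.0021), and the call held whichever 1 of the 6 libraries was left out. At chrX:116809854-116810271(-) D1 had 11.3, 12.6 and 16.6 CPM and D7 had 5.73, 10.3 and 4.23 CPM (log2 fold change -1.39, SE 0.31, adjusted p = 0.032), and the adjusted p was over 0.05 without animal 25, 26, 1 or 3.

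The threshold cut through a continuous range. The last peaks inside it were chr18:27658794-27660025(+) with a ratio of 0.668, chr3:75643042-75644112(+) with 0.668 and chr3:154627244-154627389(-) with 0.669. The first outside it were chr8:127171324-127171640(+) with 0.6701, chr5:59063047-59063507(-) with 0.671 and chr1:255372004-255373247(-) with 0.672.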

How the data were processed

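Capped RNA of soleus and EDL from 21 rats was sequenced by nAnT-iCAGE, 1 library per muscle and rat. According to the study's methods, the authors trimmed reads with Trimmomatic, aligned them with STAR to Rnor_6.0, allowing up to 20 loci per read, aggregated tag starts with PromoterPipeline and clustered them into peaks with DPI1. Which settings gave the deposited table of 9971 peaks is not given in the sources used here. The submitters' processing notes name Trimmomatic 0.38, BWA and HISAT2 instead. The deposited peak table holds raw tag counts, used here as deposited, and its normalized columns were not used. Start positions within peaks came from the deposited counts per nucleotide.

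CPM values were computed from each whole column sum, with a pseudocount of 1 CPM in ratios. Tests used edgeR 4.0.16 (R 4.3.3) with filterByExpr, TMM factors, the quasi-likelihood test and Benjamini-Hochberg adjustment over all peaks tested. Calls needed an adjusted p under 0.05 together with a change of over 2.378-fold in either direction. Soleus, EDL or all 42 libraries entered 1 fit. In a fit of 1 muscle, p-values measure the spread between animals. In the fits of all 42 they measure the spread between libraries, since both muscles of a rat entered as separate units. Only the fit with the animal as a block used the pairing. The steps were tested on simulated data. Alternatives were DESeq2 1.42.0, other scalings, no filter, lane as a term, the animal as a block, and leaving out single libraries. Tables were handled with pandas 2.3.3.

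The members and lists were chosen with earlier results of these data known. Peaks were named by rule: the 12 with the highest soleus control mean, the 10 with the lowest unloading ratio among those with at least 10 CPM in controls, up to 3 per direction and test by adjusted p, and 3 on each side of the threshold. All other peaks were chosen after their values were seen. Animal numbers mark both muscles of 1 rat and so pair the libraries. The deviations of both muscles from their group means correlated at over 0.1 in 15 of 21 animals, with a median r of 0.277. Intervals and floors cover counting error only. Marker genes and gene lists were not analysed here.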

Additional observations from a re-analysis of the deposited data

Results flagged for a closer look

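In 6 of the 274 peaks all 9 unloaded soleus libraries lay under all 3 soleus controls and all 9 unloaded EDL libraries over all 3 EDL controls. The same held for 11 of all 9969 peaks, these 6 included. The low soleus side was favoured by the choice of peaks, and the difference between the muscles was not tested. The ratio of unloaded to control EDL, with 1 CPM added, was 2.34 at chr1:89009061-89010214(+), where the EDL controls had 41.4, 32.3 and 55.9 CPM and the unloaded EDL libraries from 65.4 to 147 CPM. It was 3.49 at chr4:144192782-144193107(+) and 2.9 at chr4:144251932-144252502(+), which lies on the same strand of the same run. The peak chr4:144251932-144252502(+) was weak, with a mean of 4.34 CPM in soleus controls and 1.98 CPM in EDL controls. The remaining 3 were also weak peaks, with a ratio of 2.45 at chr11:32539748-32541347(-), 2.93 at chr13:100299605-100300443(-) and 2.75 at chr4:83390817-83391430(+). All EDL controls were in lane 1 and no unloaded EDL library was, so lane and unloading cannot be told apart in these values.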

How the results depend on the processing

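The choice of peaks depended on the settings: 155 peaks were chosen with a pseudocount of 5 CPM (106 shared with the 274) and 2119 with the lane 1 library of animal 24 as the only unloaded one. The number ran from 214 to 383 when 1 library was left out. Leaving the mitochondrial peaks out of the column sum gave 255 (252 shared) and TMM scaling 294 (229 shared). In unloaded EDL, DESeq2 called 14 peaks higher, and the lane term left 0 higher and 0 lower. With no fold cutoff 8 of 249 were higher and 11 lower (140 and 137 of all 9341 peaks), and 1 was lower without the shallow D1 libraries of animals 24 and 25, an alternative chosen after seeing the data. Leaving out 1 library gave 0 to 11 higher and 0 to 5 lower. For R7 against R3, DESeq2 called 1 higher and 1 lower (3 and 3 of all), and leaving out 1 library gave 0 in both directions. For soleus against EDL at R7, 90 were higher and 15 lower with no fold cutoff (5.47% lower, against 998 of all 9944 peaks, and 1294 of all higher), and leaving out 1 library gave 64 to 74 higher and 5 to 13 lower. With the animal as a replicate block, which pairs the muscles of 1 rat, 69 were higher and 9 lower, 65 and 7 of them shared with the fit without it (873 and 713 of all 9944 peaks). For D7 against D1, column totals gave 15 higher and 1 lower, DESeq2 9 and 5 (145 and 143 of all 9969 peaks), the lane term 0 and 1, and leaving out 1 library 0 to 2 and 1 to 2. Over single peaks, 49 values under an alternative lost the call, 11 moved by at least 1 SD, 563 did neither, and 0 changed sign. The SD was that of the 9 unloaded soleus libraries, divided by the control mean + 1 CPM. Leaving out 1 of these 9 libraries cannot move a ratio by 1 SD, so the outcome for those values was fixed in advance. The count of 563 is therefore no measure of stability. The causes were not tested. Libraries as small as 1696341 tags limit what could be detected for weak peaks.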
